A study of Sus scrofa with 11 samples.

Results

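The genes described here are 10 genes of proteoglycans and hyaluronan: versican (VCAN), perlecan (HSPG2), the small leucine-rich proteoglycans decorin (DCN), biglycan (BGN), lumican (LUM), fibromodulin (FMOD), prolargin (PRELP) and osteoglycin (OGN), hyaluronan synthase 2 (HAS2) and the hyaluronan receptor CD44. They were taken by gene name from a table of 35670 rows, in which each name occurs in 1 row. Of the 10 genes, 9 had enough reads to be among the 15930 genes tested. The row named HAS2 held no read in any library. RNA was sequenced from carotid artery of pigs that had eaten a high-fat, high-calorie diet for 12 weeks. Once a week they were infused intravenously, at 400 nM, with SWNT (single-walled carbon nanotubes as carrier) or with SWNT-SHP1i (the carrier plus a drug that inhibits SHP-1, a tyrosine phosphatase). Both groups therefore had the diet and the carrier, and no untreated or standard-diet animal is among the samples. The series lists 5 SWNT and 6 SWNT-SHP1i animals, and SWNT-SHP1i replicate 4, labelled as having died before harvest, was not analysed here. Each of the other 10 libraries is from a different animal, 5 per group. The labels give no age, sex or breed.

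Proteoglycans are core proteins that carry long sulfated sugar chains. Versican is a large chondroitin sulfate proteoglycan that binds hyaluronan, a sugar polymer made at the cell surface by hyaluronan synthases, and together they form a hydrated pericellular gel in the artery wall. In atherosclerosis, versican and biglycan are known for binding lipoproteins through their sugar chains, and decorin, lumican and fibromodulin for organising collagen fibrils. Perlecan is the heparan sulfate proteoglycan of basement membranes, and CD44 anchors hyaluronan to the surface of many cell types, leukocytes included.

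Total counts ran from 27593564 to 47718854 per library, and the 10 genes took from 0.967% to 1.59% of them. Several libraries stood apart. Counts were found in 14497 genes in SWNT-SHP1i replicate 3 against 17259 to 19942 elsewhere, and 387 genes with over 20 counts in every other library were at 0 in it. SWNT-SHP1i replicate 6 had the fewest counts and 78 such genes. Replicate 3 of each group has an animal number that starts with B3, whereas those of all other libraries start with B9, and the labels do not say what that marks. Markers of arterial smooth muscle were abundant in every library, with MYH11, the smooth muscle myosin, at 2400 to 15820 CPM, the read count scaled to library size by TMM.

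No gene passed the test. With the quasi-likelihood test of edgeR and Benjamini-Hochberg adjustment over all 15930 genes, 0 of the 9 tested members had an adjusted p under 0.05, and the share of all genes that did was 0%. The adjusted p was 0.9974 for each of the 9. An unadjusted p under 0.05 was found for 2 of them, VCAN and BGN, both higher in SWNT-SHP1i. Among all genes 4.64% had such a p, 3.49% with the higher level in SWNT-SHP1i and 1.15% with the lower. For none of the 9 did the groups fail to overlap, against 0.358% of all genes. The fold change was positive for 6 of the 9, and their median log2 fold change was 0.28. Over all genes tested, 50.8% were positive and the median was 0.01.

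**Figure D1:**
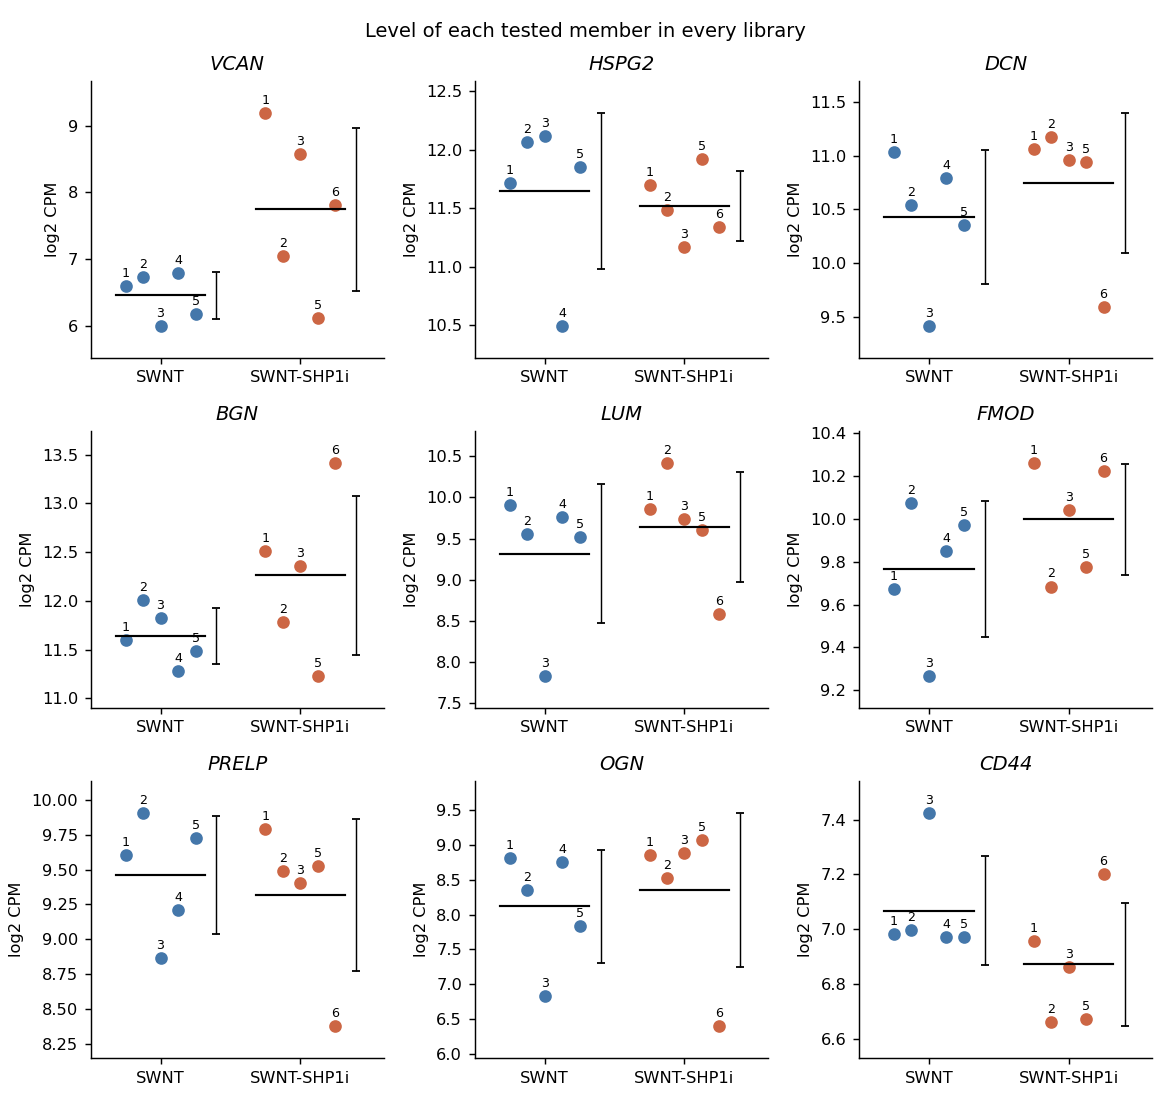
Level of each tested member in each library, as log2 CPM on an axis of its own per gene, with points numbered by replicate, horizontal lines at group means and bars of 1 SD to either side. VCAN lies between 6 and 6.79 in SWNT and between 6.11 and 9.19 in SWNT-SHP1i, and the groups overlap for every member.

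Versican showed the largest difference among the members. Its level was 96.3, 105.7, 63.9, 110.3 and 71.8 CPM in SWNT replicates 1 to 5. In SWNT-SHP1i replicates 1, 2, 3, 5 and 6 it was 585.2, 131.5, 383.4, 69.2 and 224.1 CPM. The SWNT libraries lay close together, whereas 4 of the 5 SWNT-SHP1i libraries were above every SWNT library and replicate 5 lay within the SWNT range. Mean log2 CPM was 6.45 ± 0.35 (SD, n = 5) in SWNT and 7.75 ± 1.22 (SD, n = 5) in SWNT-SHP1i. The fitted log2 fold change was 1.64 ± 0.47 (SE), with a 95% interval from 0.61 to 2.67. That is a 3.11-fold difference, with an edgeR unadjusted p of 0.00456 and an adjusted p of 0.9974. It ranked 32nd of the 15930 genes by p, and its absolute log2 fold change was at the 97.9th percentile.

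The sign of the versican difference was positive in all 20 other fits, and its size depended on single animals. Without SWNT-SHP1i replicate 1, the library with the highest level, the log2 fold change was 1.16. Without replicate 5, the lowest of that group, it was 1.88. Without SWNT-SHP1i replicates 3 and 6 it was 1.55, with an interval from 0.22 to 2.88. Among the 4 B9 animals per group it was 1.39, with an interval from 0.13 to 2.66. The smallest adjusted p of versican in any of these fits was 0.2073, with DESeq2.

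Of 9 cell type lists, those of smooth muscle and Schwann cells had their lowest sums where versican was highest. In the 3 libraries with the highest versican, SWNT-SHP1i replicates 1, 3 and 6, the summed level of 7 contractile smooth muscle markers was 24690, 24150 and 16980 CPM. It was 30520 and 39030 CPM in replicates 2 and 5, and 32340 to 48360 CPM in SWNT. The 7 markers all had negative fold changes, and none passed the test. An edgeR unadjusted p under 0.05 was found for 4 of the 7, against 1.15% of all genes with the lower level in SWNT-SHP1i. MYOCD had a log2 fold change of -0.01 and did not follow the sum, at 52.3 CPM in SWNT-SHP1i replicate 1 and 20.5 CPM in replicate 2. The 4 Schwann cell markers summed to 65, 77.2 and 29.5 CPM in SWNT-SHP1i replicates 1, 3 and 6. They summed to 93.6 and 102.3 CPM in replicates 2 and 5, and to 122.4 to 159.1 CPM in SWNT. All 4 were negative, 2 with an edgeR unadjusted p under 0.05 (1.15% of all genes), and none passed. The endothelial, T cell, adipocyte and cartilage sums of the groups overlapped.
The 7 fibroblast markers summed to 39960 to 80670 CPM in SWNT and to 88420, 101200, 67280, 77880 and 90300 CPM in SWNT-SHP1i replicates 1, 2, 3, 5 and 6. All 7 fold changes were positive, 3 with an edgeR unadjusted p under 0.05 (3.49% of all genes), and none passed the test. The sum did not follow versican, being lowest of the group in replicate 3 and highest in replicate 2. The 8 macrophage markers summed to 304.5 to 902.9 CPM in SWNT. They summed to 1044, 1115, 1070 and 1770 CPM in SWNT-SHP1i replicates 1, 2, 3 and 6, and to 318.4 CPM in replicate 5, the replicate with versican in the SWNT range. All 8 macrophage markers had positive fold changes with an edgeR unadjusted p under 0.05, and none of the 8 passed the test. Among all genes 3.49% had such a p with the higher level in SWNT-SHP1i. No marker on the smooth muscle, fibroblast and macrophage lists was at 0 throughout, and the Schwann cell marker S100B was not found by name. The part of these markers in the versican values was not tested, and in whole tissue more cells of a type and more RNA per cell cannot be told apart.

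The row counted as versican covers more than versican. It lies on the plus strand at chr2:91384391-91811208 of Sscrofa11.1 and sums 20426 exon bases in 28 intervals. RefSeq places VCAN on the same build at chr2:91682177-91811674 and the DNA repair gene XRCC4 at chr2:91358348-91643697, and no row of the table is named XRCC4. Of the row's exon bases, 11638 (57%) lie from the RefSeq start of VCAN on. Reads of XRCC4 may therefore be among the counts of this row and cannot be separated from them. Its end lies 46.4 kb from HAPLN1, the gene of a link protein that ties versican to hyaluronan.

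The perlecan values of the groups overlapped. HSPG2, at chr6:79849698-79958334 on the minus strand, was at 3360, 4295, 4430, 1443 and 3698 CPM in SWNT replicates 1 to 5. It was at 3318, 2867, 2295, 3882 and 2586 CPM in SWNT-SHP1i replicates 1, 2, 3, 5 and 6. SWNT replicate 4 held the lowest value of all, and the remaining SWNT values overlapped those of SWNT-SHP1i. The log2 fold change was -0.20 ± 0.29 (SE), with an interval from -0.83 to 0.42. It was -0.40 without SWNT replicate 4 and -0.10 without SWNT replicate 3. The ratio of versican to perlecan CPM per 1000 exon bases was 0.0103 to 0.0544 in SWNT, and 3 SWNT-SHP1i libraries lay above that range, at 0.126, 0.119 and 0.0617.

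Biglycan, a small proteoglycan with chondroitin or dermatan sulfate chains, had the second largest difference. BGN was at 3109, 4124, 3637, 2492 and 2875 CPM in SWNT replicates 1 to 5, and at 5858, 3538, 5254, 2406 and 10910 CPM in SWNT-SHP1i replicates 1, 2, 3, 5 and 6. Replicates 1, 3 and 6 of SWNT-SHP1i, the same 3 that were highest in versican, lay above every SWNT library, and replicate 5 lay below all of them. The log2 fold change was 0.78 ± 0.35 (SE), a 1.72-fold difference, with an interval from 0.02 to 1.55 and an edgeR unadjusted p of 0.0455. It rested on SWNT-SHP1i replicate 6. Without that library the log2 fold change was 0.39, and without replicates 3 and 6 it was 0.28 with an edgeR unadjusted p of 0.3365. BGN lies on the plus strand at chrX:124275305-124295445, where its row overlaps that of SLC6A8 on the same strand, so that reads in the overlap are uncertain.

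Decorin, the nearest relative of biglycan, had a smaller difference that did not pass. DCN was at 2103, 1495, 682, 1776 and 1312 CPM in SWNT replicates 1 to 5, and at 2143, 2315, 1993, 1976 and 771 CPM in SWNT-SHP1i replicates 1, 2, 3, 5 and 6. In each group 1 library was far below the rest, replicate 3 in SWNT and replicate 6 in SWNT-SHP1i. The log2 fold change was 0.32 ± 0.34 (SE), with an interval from -0.41 to 1.05. Leaving out SWNT replicate 3 gave 0.14, and leaving out SWNT-SHP1i replicate 6 gave 0.52.

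Lumican and osteoglycin, both of which shape collagen fibrils, were low in the same 2 libraries. LUM was at 960.1, 751.2, 227.6, 871.4 and 732 CPM in SWNT replicates 1 to 5. It was at 928.5, 1367, 854.3, 780.9 and 384.1 CPM in SWNT-SHP1i replicates 1, 2, 3, 5 and 6, and its log2 fold change was 0.28 ± 0.38 (SE). The groups overlapped nearly throughout, with SWNT-SHP1i replicate 2 alone above the SWNT range.
OGN was at 448.2, 327.2, 113.6, 432 and 229.1 CPM in SWNT replicates 1 to 5. It was at 465.5, 369.6, 474, 536 and 84.4 CPM in SWNT-SHP1i replicates 1, 2, 3, 5 and 6, and its log2 fold change was 0.32 ± 0.46 (SE). The intervals of both genes included 0, from -0.55 to 1.12 for LUM and from -0.68 to 1.31 for OGN. Single libraries moved both, LUM to 0.06 without SWNT-SHP1i replicate 2 and OGN to 0.10 without SWNT replicate 3. The low values of SWNT replicate 3 fell together with the lowest summed fibroblast markers (39960 CPM). Of these markers PDGFRA (24 CPM), COL1A2 (6526 CPM), COL3A1 (14150 CPM) and PI16 (439.7 CPM) were the lowest of their group there. COL1A1 (17920 CPM), FBLN1 (886.6 CPM) and SFRP2 (19.6 CPM) were not. In SWNT-SHP1i replicate 6 the fibroblast markers also went both ways. COL1A1 (53800 CPM) and SFRP2 (4323 CPM) were the highest of their group there, whereas PDGFRA (60.7 CPM), COL1A2 (12270 CPM), COL3A1 (18500 CPM) and PI16 (605 CPM) were the lowest of theirs. The part of these markers in the LUM and OGN values was not tested.

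Fibromodulin and prolargin, which bind collagen, had the smallest positive and the smallest negative fold change of the members. FMOD was at 815, 1077, 616, 923.6 and 1004 CPM in SWNT replicates 1 to 5. It was at 1226, 822.3, 1054, 875.5 and 1196 CPM in SWNT-SHP1i replicates 1, 2, 3, 5 and 6, with a log2 fold change of 0.22 ± 0.21 (SE) and an interval from -0.23 to 0.68. Replicates 1 and 6 of SWNT-SHP1i were above the SWNT range, and the fold change was 0.11 without SWNT replicate 3.
PRELP was at 777.7, 958.3, 465.3, 590.7 and 845.3 CPM in SWNT replicates 1 to 5. It was at 885.7, 719.6, 676.6, 735.7 and 332.3 CPM in SWNT-SHP1i replicates 1, 2, 3, 5 and 6, with a log2 fold change of -0.12 ± 0.28 (SE) and an interval from -0.72 to 0.49. SWNT-SHP1i replicate 6 was the lowest library for PRELP and among the highest for FMOD, and without it the sign for PRELP turned, to 0.05.

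**Figure D2:**
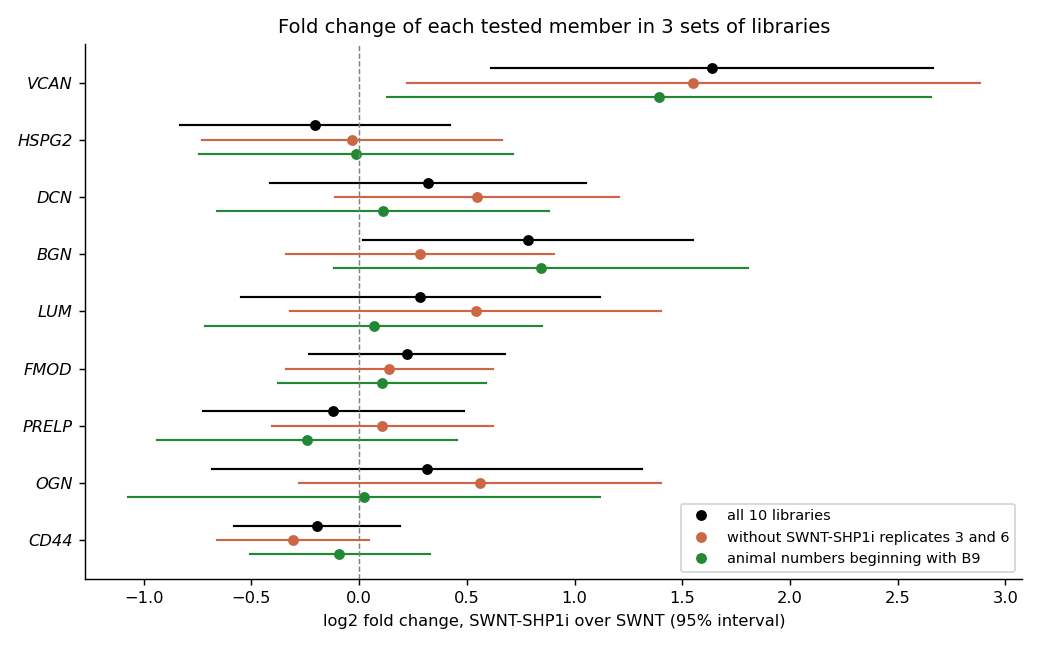
Log2 fold change of SWNT-SHP1i over SWNT for each tested member with its 95% interval from edgeR, for all 10 libraries (black), without SWNT-SHP1i replicates 3 and 6 (orange) and for B9 animals only (green). The VCAN interval lies above 0 in all 3 sets, that of BGN with all 10 libraries only, and those of the remaining members include 0.

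The hyaluronan receptor CD44 had a negative fold change that did not pass. It was at 126.3, 127.6, 171.7, 125.4 and 125.3 CPM in SWNT replicates 1 to 5, and at 124.3, 101, 116.4, 101.9 and 147.3 CPM in SWNT-SHP1i replicates 1, 2, 3, 5 and 6. In SWNT-SHP1i, 4 of 5 libraries were below every SWNT library and replicate 6 was above 4 of them. The log2 fold change was -0.20 ± 0.18 (SE), with an interval from -0.58 to 0.19, and without SWNT replicate 3, the highest library, it was -0.10. CD44 lies on the minus strand at chr2:25788703-25884153 and its row overlaps that of SLC1A2 on the opposite strand.

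The row named HAS2, for an enzyme that makes hyaluronan, had 0 counts in all 10 libraries. A count of 0 allows a level of at most 0.0629 to 0.109 CPM, depending on the library, from 3 counts and for counting error only. This row lies at chr4:17655948-17675586 and does not overlap the hyaluronan synthase 2 gene of RefSeq (symbol SHAS2), which is at chr4:17583154-17613524. A row without a name at chr4:17596492-17615480, on the plus strand, overlaps that RefSeq gene over 0.527 of the union of both spans. It was at 5.34, 3.36, 2.77, 5.42 and 2.99 CPM in SWNT replicates 1 to 5, and at 4.96, 6.38, 2.39, 6.69 and 1.75 CPM in SWNT-SHP1i replicates 1, 2, 3, 5 and 6. RefSeq as given here lists no strand for SHAS2. Another row without a name, on the minus strand at chr4:17583411-17584669, lies within the RefSeq gene and had 66 to 226 counts per library. It covers 0.041 of the union with SHAS2, against 0.221 with LOC106509979, a long non-coding RNA gene of RefSeq. The values of the plus-strand row rest on 42 to 261 counts per library, and the groups overlapped. Its log2 fold change was 0.16 ± 0.43 (SE), with an interval from -0.78 to 1.09. The row named HAS2 matched another protein-coding gene of RefSeq, LOC100737755, over 0.67 of the union. By position only the unnamed plus-strand row had SHAS2 as its best match. Which of these rows holds the synthase was not settled, and the absence of counts in the named row does not show that hyaluronan synthase 2 was without RNA.

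Per 1000 exon bases of the deposited lengths, biglycan was the most abundant of the 10 and versican the least of those with reads. Mean levels in SWNT and SWNT-SHP1i, in CPM per 1000 exon bases, were 1277 and 2200 for BGN and 877 and 1094 for DCN. The next were FMOD at 277.5 and 323.6, LUM at 225.5 and 274.6, HSPG2 at 236.8 and 205.5, and PRELP at 194 and 178.7. OGN was at 100.2 and 124.7, CD44 at 23.9 and 20.9, and VCAN at 4.39 and 13.6. Not all neighbours in this order were separated. BGN was above DCN in 7 of 10 libraries, FMOD above LUM in 8, LUM above HSPG2 in 5 and HSPG2 above PRELP in 7. DCN exceeded FMOD in all 10 with ranges that did not overlap. PRELP exceeded OGN, and OGN exceeded CD44, in all 10 with ranges that overlapped, and CD44 exceeded VCAN in 9. With the 11638 bases from the RefSeq start on as length, versican was at 7.7 and 23.9 and below CD44 in 8 of 10 libraries. Its SWNT-SHP1i mean was then above that of CD44 (20.9).

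**Figure D3:**
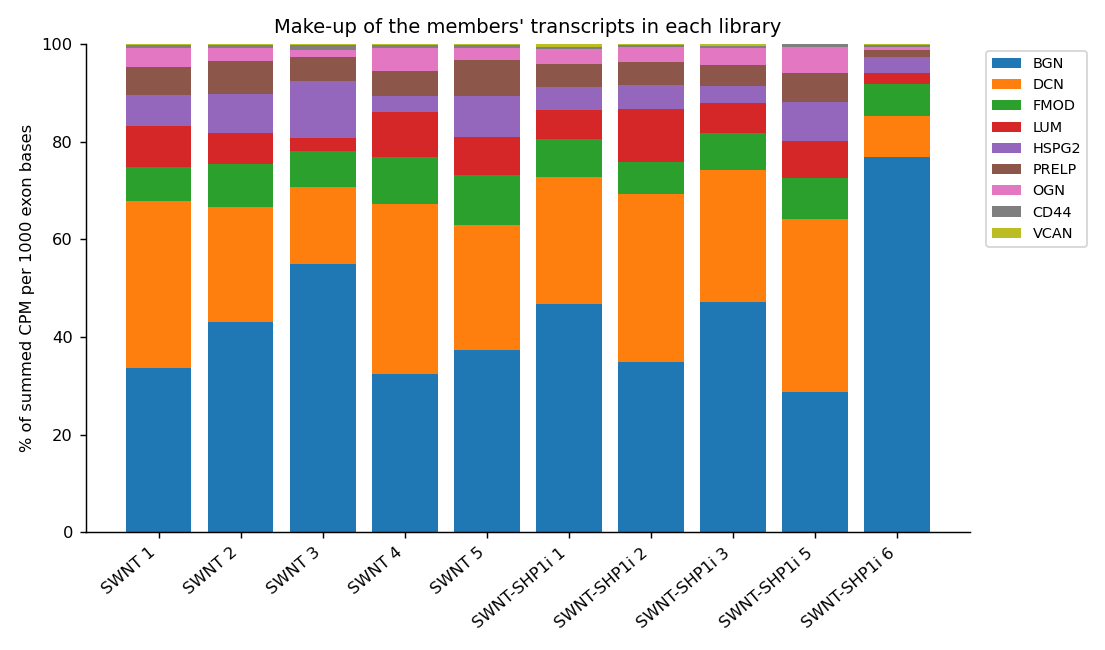
Make-up of the members' RNA in each library, as each gene's percent of the members' summed CPM per 1000 exon bases. BGN makes up 76.9% in SWNT-SHP1i replicate 6, whereas the remaining 9 libraries lie between 28.7% and 55%.

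The make-up of the set varied widely within both groups. The share of BGN in the members' summed CPM per 1000 exon bases was 32.4% to 55% in SWNT and 28.7% to 76.9% in SWNT-SHP1i. That of DCN was 15.6% to 34.9% and 8.23% to 35.6%. The share of CD44 was 0.599% to 1.17% in SWNT and 0.447% to 0.546% in SWNT-SHP1i, over a sum that is mostly BGN and DCN, and was not tested. These ranges do not overlap, whereas those of the other members with reads do. No such share was computed for genes outside the set, so a background is missing. In CPM the groups overlapped for CD44, at 125.3 to 171.7 in SWNT and 101 to 147.3 in SWNT-SHP1i. The ratio of BGN to DCN, again per 1000 exon bases, had a median of 1.45 in SWNT and 1.74 in SWNT-SHP1i. It was highest in SWNT-SHP1i replicate 6, at 9.36, and next in SWNT replicate 3, at 3.53, the libraries in which DCN was lowest. The ratio of LUM to DCN was steadier, at 0.179 to 0.299 in SWNT and 0.212 to 0.316 in SWNT-SHP1i.

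Over the 10 libraries decorin varied with lumican and with osteoglycin. Of 36 pairs of members, 4 had a Benjamini-Hochberg adjusted permutation p under 0.05 for Pearson's r of log2 CPM, and 1 of these 4 also for Spearman's rho. For DCN and LUM r was 0.951 (permutation p = 3e-05, adjusted 0.00108) and rho was 0.952 (permutation p = 0.00011, adjusted 0.00396). Without SWNT replicate 3 and SWNT-SHP1i replicate 6, the libraries farthest from the median of DCN, r was 0.757. Among the 8 B9 animals it was 0.935.
For DCN and OGN r was 0.95 (permutation p = 0.00088, adjusted 0.0122) and rho was 0.697 (adjusted permutation p = 0.184), and r without the same 2 libraries was 0.768 (exact permutation p = 0.0509). For LUM and OGN r was 0.836 (adjusted permutation p = 0.0736), which did not pass, and 0.204 without those libraries.

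CD44 ran opposite to this group, at r = -0.864 with DCN (permutation p = 0.00102, adjusted 0.0122; rho -0.758) and r = -0.876 with LUM (permutation p = 0.00185, adjusted 0.0166; rho -0.636). Without the same 2 libraries these were -0.521 (exact permutation p = 0.139) and -0.485 (exact permutation p = 0.308), so both relations were weaker without that pair. Without SWNT-SHP1i replicate 6 alone both were -0.856. Among the B9 animals, which leave out SWNT replicate 3, they were -0.743 with DCN and -0.732 with LUM. Biglycan did not follow decorin, with r = -0.385, and 0.09 without SWNT-SHP1i replicate 6. It followed versican more closely, at r = 0.689 (permutation p = 0.0274, adjusted 0.0985) with rho = 0.661, which did not pass the adjustment, and r without SWNT-SHP1i replicates 1 and 3 was 0.783 (exact permutation p = 0.0731). Versican and fibromodulin gave r = 0.693 (adjusted permutation p = 0.0985), and 0.625 without the same replicates. All pairs share the libraries and their depth, and both treatment groups are pooled in them.

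**Figure D4:**
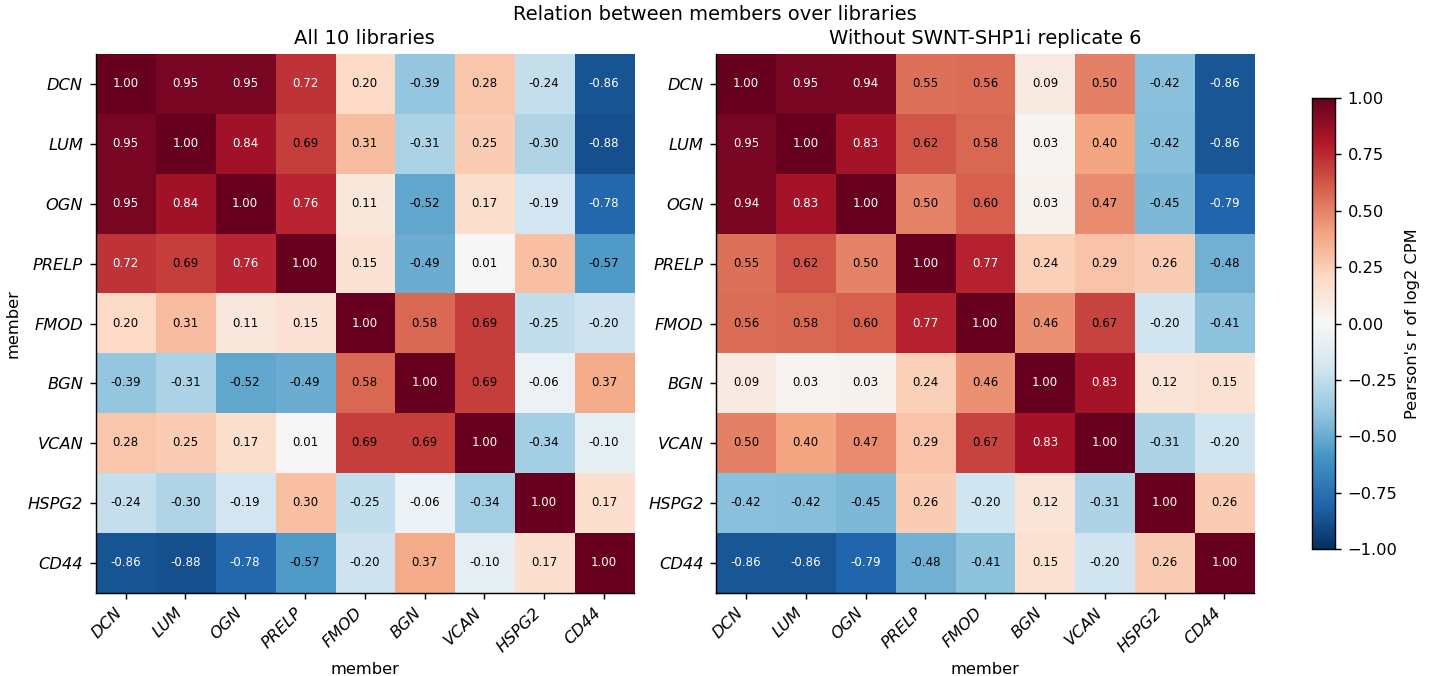
Pearson's r of log2 CPM for each pair of members over all 10 libraries (left) and without SWNT-SHP1i replicate 6 (right), on a colour scale from -1 to 1. The 3 pairs of DCN, LUM and OGN have r of 0.83 to 0.95 in both panels, and VCAN with BGN goes from 0.69 to 0.83.

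Several of these genes lie next to each other. DCN at chr5:91682658-91714235 and LUM at chr5:91748885-91757598 are 34.6 kb apart on the plus strand, followed by KERA and EPYC, the small proteoglycans keratocan and epiphycan. FMOD at chr9:64063001-64073858 and PRELP at chr9:64190982-64207001 are 117.1 kb apart on opposite strands, with OPTC (opticin) 4.5 kb beyond PRELP. OGN at chr3:42116526-42135939 lies 6.7 kb from OMD (osteomodulin) and 29.6 kb from ASPN (asporin), and its row overlaps that of CENPP on the opposite strand. For FMOD and PRELP r was 0.148 over all libraries (rho 0.273) and 0.771 without SWNT-SHP1i replicate 6. The sign was not stable. Without SWNT replicate 3 and SWNT-SHP1i replicate 1, the libraries farthest from the median of FMOD, r was -0.455. Among the B9 animals r was -0.217.

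Of 13608 other tested genes with a symbol, those whose log2 CPM was most like versican's over the 10 libraries were ATP1B3, LGR6, ADAMTS19, RIMS3 and C17orf58. Their r with VCAN ran from 0.95 to 0.968, and from 0.817 to 0.878 without SWNT-SHP1i replicates 1 and 3. ATP1B3, a subunit of the sodium pump, was at 77.3 to 110.3 CPM in SWNT and at 233.8, 104.1, 190.5, 75.4 and 151.1 CPM in SWNT-SHP1i replicates 1, 2, 3, 5 and 6. ADAMTS19, a metalloprotease, was at 0.67 to 3.64 CPM in SWNT and at 35.1, 2.13, 18.2, 2.1 and 6.2 CPM in the same SWNT-SHP1i libraries. For both genes replicates 1, 3 and 6 ranked in that order, as for versican. These genes were picked for the likeness, which is a description with no test.

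The other genes of the pathway were read from 9 lists of 113 genes, of which 99 were tested. None passed. Fold changes were positive for 47 and negative for 52, with a median log2 fold change of -0.06. Of the 99, an unadjusted p under 0.05 was found for 3 higher in SWNT-SHP1i (3.49% of all genes) and 5 lower (1.15% of all genes). The groups did not overlap for 1 gene, ITIH4 (0.358% of all genes).

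**Figure D5:**
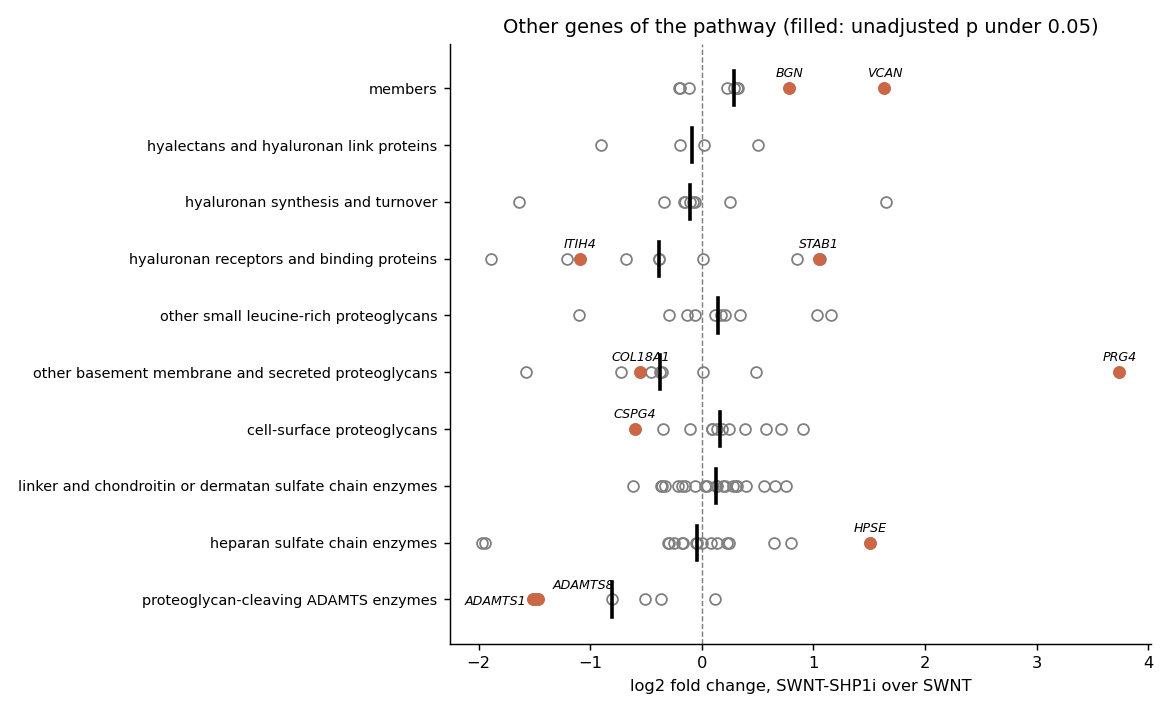
Log2 fold change of SWNT-SHP1i over SWNT for the tested genes of the members and of each pathway list, with the list median as a bar and genes with an unadjusted p under 0.05 filled and named. VCAN and BGN stand to the right of the other members, and 6 of the 7 ADAMTS genes lie to the left of 0.

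Versican's relatives had fold changes of both signs. Of the hyalectans and link proteins, which bind hyaluronan as versican does, 4 of 7 were tested, 2 positive and 2 negative. Aggrecan (ACAN) was at 47.9 to 91 CPM in SWNT and at 7.57, 34.4, 8.04, 136.4 and 11.7 CPM in SWNT-SHP1i replicates 1, 2, 3, 5 and 6. Its level in SWNT-SHP1i was thus lowest in the 3 libraries with the most versican and highest in replicate 5. Its log2 fold change was -0.90 ± 0.71 (SE). It was -2.26 without replicate 5 and -0.31 without replicates 3 and 6. HAPLN1 was at 0.02 ± 0.41, HAPLN3 at -0.20 ± 0.21 and HAPLN4 at 0.50 ± 0.68 on the same scale, and that of HAPLN4 was -0.33 without SWNT-SHP1i replicate 6.

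Of the genes that make or break down hyaluronan all 9 were tested, 2 positive and 7 negative, with a median log2 fold change of -0.11 and none with an unadjusted p under 0.05. UGDH, which makes the UDP-glucuronate used for hyaluronan, had 0.25 ± 0.26 (SE) on the log2 scale, and the hyaluronidase HYAL1 -0.34 ± 0.27. Without SWNT-SHP1i replicate 6 these were 0.44 and -0.18. CEMIP, a hyaluronan-degrading protein, had 1.65 ± 1.18, which rested on SWNT-SHP1i replicate 6 at 15.5 CPM and was -0.61 without it. The synthase HAS1 had -1.64 ± 1.22, which rested on SWNT replicate 3 at 4.38 CPM and was -0.09 without it.

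Among 10 tested genes on the list of hyaluronan receptors and binding proteins, 4 were positive and 6 negative, with a median of -0.38. Binding to hyaluronan was not examined for any of them. ITIH4, of the inter-alpha-trypsin inhibitor heavy chain family, was at 1523, 2188, 2864, 1796 and 1913 CPM in SWNT replicates 1 to 5, and at 668.7, 1504, 970.9, 1292 and 376.4 CPM in SWNT-SHP1i replicates 1, 2, 3, 5 and 6. Every SWNT library was above every SWNT-SHP1i library, by a narrow margin for SWNT replicate 1 and SWNT-SHP1i replicate 2. Its log2 fold change was -1.10 ± 0.34 (SE; edgeR unadjusted p = 0.00729, adjusted p = 0.9974). STAB1, a scavenger receptor of macrophages and sinusoidal endothelium, was at 69.7 to 178 CPM in SWNT and 90.3 to 398.7 CPM in SWNT-SHP1i. Its log2 fold change was 1.05 ± 0.38 (SE; edgeR unadjusted p = 0.0174). The receptor LYVE1 had 1.06 ± 0.63, and 1.95 without SWNT replicate 1. ITIH5 had -0.38 ± 0.22, and -0.25 without SWNT-SHP1i replicate 6.

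Of the other small leucine-rich proteoglycans 10 were tested, 6 positive and 4 negative, with a median of 0.14 and none with an unadjusted p under 0.05. TSKU (tsukushi) had a log2 fold change of 1.03 ± 0.49 (SE), KERA 1.16 ± 0.67, CHAD (chondroadherin) -1.10 ± 0.52 and PODN (podocan) -0.30 ± 0.17. Single libraries carried much of the first 3. TSKU was 0.27 without SWNT-SHP1i replicate 6 (241.6 CPM), KERA 0.65 without SWNT-SHP1i replicate 3 and CHAD -0.42 without SWNT replicate 3 (164.9 CPM). OMD and ASPN, the neighbours of OGN, had 0.17 ± 0.41 and -0.06 ± 0.21.

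Of 9 other basement membrane and secreted proteoglycans 3 were positive and 6 negative, with a median of -0.37. COL18A1, which like perlecan is a basement membrane heparan sulfate proteoglycan, was at 1742 to 3242 CPM in SWNT and 1260 to 1846 CPM in SWNT-SHP1i. Its log2 fold change was -0.55 ± 0.22 (SE; edgeR unadjusted p = 0.0283). PRG4 (lubricin), named by its position, was at 0 to 0.999 CPM in SWNT and 0.21 to 12.3 CPM in SWNT-SHP1i, with 3.74 ± 1.31 (SE; edgeR unadjusted p = 0.0142). SRGN (serglycin), the proteoglycan of leukocyte granules, had 0.49 ± 0.28. SPOCK3, at most at 4.15 CPM in any library, had -1.58 ± 0.94.

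Cell-surface proteoglycans numbered 12 tested, 9 positive and 3 negative, with a median of 0.16. CSPG4 (NG2), found on pericytes and smooth muscle, had a log2 fold change of -0.60 ± 0.26 (SE; edgeR unadjusted p = 0.0395), from 450.5 to 855.7 CPM in SWNT and 269.3 to 677.5 CPM in SWNT-SHP1i. The syndecan SDC3 had 0.39 ± 0.23, and the glypicans GPC1 and GPC6 had 0.71 ± 0.42 and -0.35 ± 0.21. Without SWNT-SHP1i replicate 6, where GPC1 was at 268.5 CPM, these were 0.01 and -0.22.

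The enzymes that build the sugar chains showed no common direction. For the linker and chondroitin or dermatan sulfate chains 13 of 21 tested genes were positive, with a median of 0.13 and none with an unadjusted p under 0.05. The smallest p on this list was that of CSGALNACT1, which starts chondroitin chains, with a log2 fold change of -0.61 ± 0.29 (SE). The polymerising factor CHPF had 0.65 ± 0.33, and the sulfotransferases CHST15 and CHST11 had 0.76 ± 0.42 and 0.55 ± 0.37. Without SWNT-SHP1i replicate 6 these 3 were 0.18, 0.30 and 0.33. For the heparan sulfate chains 7 of 17 were positive, with a median of -0.04. HPSE, the heparanase that cuts these chains, was at 0.295 to 1.61 CPM in SWNT and 0.869 to 6.74 CPM in SWNT-SHP1i, with 1.51 ± 0.65 (SE; edgeR unadjusted p = 0.0377), and 0.94 without SWNT-SHP1i replicate 6. The next genes of this list by p were negative. SULF2 had -0.30 ± 0.19, NDST3 -1.95 ± 1.07 and HS3ST5 -1.97 ± 1.34. The last 2 were at most at 1.12 and 1.74 CPM in any library.

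Of the 7 proteases on the list of proteoglycan-cleaving ADAMTS enzymes, 6 were negative and 1 positive, with a median log2 fold change of -0.81. ADAMTS1 was at 62.5 to 417.2 CPM in SWNT and at 47.8, 83.7, 38.8, 163.6 and 37.1 CPM in SWNT-SHP1i replicates 1, 2, 3, 5 and 6. Like ACAN, it was lowest in the 3 libraries with the most versican. Its log2 fold change was -1.51 ± 0.59 (SE; edgeR unadjusted p = 0.0247). ADAMTS8 was at 14.2 to 52.7 CPM in SWNT and 2.08 to 17.9 CPM in SWNT-SHP1i, with -1.46 ± 0.61 (SE; edgeR unadjusted p = 0.0332). SWNT replicate 3 was the highest library for both. Without it the values were -1.11 and -0.93, and that of ADAMTS15 went from -0.81 to -0.16. ADAMTS20, at most at 1.61 CPM in any library, had -1.49 ± 1.05 (SE).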

How the data were processed

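Poly-A RNA was sequenced from pig carotid artery. The authors deposited 1 table of raw read counts, whole numbers for each gene, without normalization. The submitters' processing notes name Trim Galore, STAR, DESeq2 and the build Sscrofa11.1. Which program counted the reads, with which strand setting and gene annotation, is not given in the sources used here, so reads of overlapping genes are uncertain. Read duplicates are not described.

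The table names 17532 of 35670 rows. A further 223 were named from an identifier table and 846 by RefSeq position, where the spans shared at least 0.5 of their union. No sequence is shown. All 45 library pairs differed by more than sampling noise (lowest median chi-square per gene 5.4, where noise gives 0.455), and each library is a replicate. Replicate numbers follow accession order.

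Genes were filtered with filterByExpr (minimum count 10), scaled by TMM and tested in R 4.3.3 by edgeR 4.0.16 (quasi-likelihood, robust), SWNT-SHP1i against SWNT, with Benjamini-Hochberg adjustment over all 15930 genes and a threshold of 0.05. The SE was derived from F, as the size of the log2 fold change over its square root. Fitted fold changes are drawn towards high libraries and can exceed the difference of mean log2 CPM (prior count 2). CPM per 1000 exon bases uses the deposited exon lengths. Correlations used 100000 permutations, two-sided, over 36 pairs, since HAS2 had no counts. Exact permutations were used where 2 libraries were left out.

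The members, the lists, the tests and the alternatives were chosen with earlier results of these data known. Genes named are all members, up to 4 tested genes of each list with the smallest p, and the 5 genes most like VCAN. OMD and ASPN were named as neighbours of OGN, and XRCC4, SLC6A8, SLC1A2 and CENPP for their position, and single cell type markers after their values were seen. Alternatives were other scalings (RLE, upper quartile), no filter, DESeq2 1.42.0, a fit without the robust option, a filter at 1 CPM, limma-voom 3.58.1 with quality weights, the animal-number range as a term, B9 animals only, a threshold of 0.1, SWNT-SHP1i replicates 3 and 6 left out, and each library left out in turn.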

Additional observations from a re-analysis of the deposited data

Results flagged for a closer look

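Of 92 groups of 5 libraries examined for a single library far from the rest (Dixon's test at 95%), 10 stood out, and chance alone gives about 1 in 20. SWNT replicate 3 and SWNT-SHP1i replicate 6 held 4 each. Values are log2 CPM.

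In SWNT-SHP1i replicate 6, DCN was at 9.59 with the next library at 10.95, PRELP at 8.38 with the next at 9.4, OGN at 6.4 with the next at 8.53, and UGDH at 5.03 with the next at 6.15. In SWNT replicate 3, LUM was at 7.83 with the next library at 9.52. CD44 was at 7.42 there with the next at 7, ADAMTS8 at 5.72 with the next at 4.32, and ADAMTS15 at 8.82 with the next at 6.99. HSPG2 in SWNT replicate 4 was at 10.49 with the next at 11.71, and ADAMTS15 in SWNT-SHP1i replicate 2 was at 7.19 with the next at 6.66.

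These 2 libraries also had low quality weights in limma-voom, 0.118 for SWNT-SHP1i replicate 6 and 0.41 for SWNT replicate 3. SWNT-SHP1i replicate 3 had 0.207, and the other 7 libraries 0.931 to 2.9. The part of library quality in the 10 values was not tested.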

How the results depend on the processing

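No member and no pathway gene passed the threshold in any of the 20 other fits, or with edgeR at a threshold of 0.1. Genes absent from a fit count as not passing, such as CEMIP with DESeq2, and HAS1 and PRG4 with the filter at 1 CPM. Over all genes, DESeq2 called 2, FFAR2 (higher) and NUGGC (lower), and gave an unadjusted p to 23984. EdgeR called 0 of 15930, NUGGC not being among these. At an unadjusted p under 0.05 edgeR gave 739 genes, DESeq2 1171, limma-voom 1400, no filter 1668 (of 24493 genes) and the fit without SWNT-SHP1i replicate 5 1583. Members with such a p numbered 2 or 1, VCAN being 1 of them in each fit. With limma-voom the second was DCN (limma-voom unadjusted p = 0.0406) and not BGN (limma-voom unadjusted p = 0.183). Signs turned for PRELP, 0.108 without SWNT-SHP1i replicates 3 and 6. With limma-voom they turned for HAPLN4 (-0.085), CEMIP (-0.173), HAS1 (0.566) and HYAL1 (0.04). Among B9 animals they turned for HAPLN1 (-0.176) and HAS1 (0.238), and without replicates 3 and 6 for CEMIP (-0.197). Leaving out each library in turn gave -0.245 to 0.052 for PRELP, -0.328 to 0.791 for HAPLN4, -0.216 to 0.282 for HAPLN1, -0.615 to 1.969 for CEMIP and -0.039 to 0.359 for the row at RefSeq SHAS2. The causes were not tested. No paired analysis was possible because the replicate numbers follow accession order and the labels pair no animals. With 5 animals per group and a spread like that of VCAN in SWNT-SHP1i (SD 1.22 on the log2 scale), the number of animals limits the precision.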

Other observations

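CKM, the creatine kinase of skeletal and heart muscle, was chosen here after its values were seen. It was at 6.93 to 23.9 CPM in SWNT and at 142.9, 21.6, 165.8, 8.06 and 90.8 CPM in SWNT-SHP1i replicates 1, 2, 3, 5 and 6, so that the libraries with the most versican also had the most CKM. The other 4 skeletal muscle markers were too low to be tested.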
